A study of Saccharomyces cerevisiae with 10 samples.

Results

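The DNA replication machinery copies the genome once in each cell cycle, and the 40 genes described here encode most of its core in the budding yeast Saccharomyces cerevisiae. They were taken by name from a fixed list, chosen with earlier results of these data known. Each of the 40 was found by its gene symbol among the 5449 genes with a named probe set, and each was measured by 1 probe set. By role they are 6 subunits of the origin recognition complex, 5 genes of the helicase and its loading, 7 genes of helicase activation, 10 polymerase and primase subunits, 6 genes of the sliding clamp and its loader, 3 subunits of replication protein A, 2 enzymes that join Okazaki fragments and the scaffold gene CTF4.

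Replication starts at origins, where the origin recognition complex and Cdc6 load the ring-shaped MCM helicase in G1 phase. The kinase Cdc7 with Dbf4 and the cyclin-dependent kinase then turn the loaded ring into an active helicase by adding Cdc45 and the GINS complex, and DNA polymerases alpha, delta and epsilon copy both strands. In dividing yeast many of these genes are transcribed as cells pass from G1 into S phase, under the factors MBF and SBF, and CDC6 and several MCM genes peak earlier, around the end of mitosis.

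The mRNA was measured while a pool of barcoded diploid yeast strains passed from glucose to ethanol. The strains carry pairs of proteins fused to fragments of a methotrexate-resistant reductase, so that growth in methotrexate depends on the binding of each pair. The pool was grown in minimal medium with 2% dextrose (0 h) and sampled at 0.5, 1, 4 and 12 h in methotrexate medium whose carbon source was 2% ethanol, and 2 Affymetrix Yeast arrays were run for each time. The cultures were kept at 30°C. The arrays of a time are named biological replicates 1 and 2, but the description is of 1 pooled culture, so p-values here measure the spread between arrays, which may be technical.

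All samples share the pooled diploid strains. The culture before the shift is described in one place as with methotrexate and in another as without it. In every comparison with 0 h the start of the drug, the change of carbon source and the move to new medium therefore cannot be told apart. The RMA intensities used here are scaled so that the arrays have like overall levels, and a change in total mRNA per cell would not show. A larger share of cells in S phase and more transcript in each such cell cannot be told apart in these bulk samples, and levels of different genes are not compared because each gene has its own probes.

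Array medians over all probe sets lay between 316 and 351, and the correlation of log2 intensity between the 2 arrays of a time lay between 0.977 and 0.985 over all genes. As a check of the diploid label, 13 haploid-specific and mating genes, which diploid cells keep low, were all measured. Their summed intensity was 1603 and 1276 at 0 h, between 821 and 968 at 0.5 and 1 h, and between 693 and 719 at 4 and 12 h. With no haploid sample to set them against, these sums cannot decide the label. By limma 7 of the 13 were lower at 12 h than at 0 h and 0 were higher. All genes gave 22.0% lower and 21.4% higher. STE2, the receptor for alpha factor, had 77.7 and 41.3 at 12 h, against 254 and 276 at 0 h. The markers did not all fall, and 4 of the 13 had a log2 fold change above 0 at 12 h over 0 h. Among these was STE3, with 34.2 and 62.9 at 12 h, against 23.4 and 30.0 at 0 h. The part of the changes in these 13 genes in the values below was not tested.

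At 0.5 h in ethanol as many replication genes were higher as were lower. By limma, at a Benjamini-Hochberg adjusted p under 0.05 over all genes, 8 of 40 were higher than at 0 h and 8 were lower. Over all 5449 genes the shares called were 30.1% higher and 32.7% lower. The higher genes were all 3 subunits of replication protein A (RFA1, RFA2 and RFA3), the clamp POL30, the primase subunit PRI2, the DNA ligase CDC9, CDC45 and the GINS subunit PSF3. The lower genes were ORC3 and ORC4, MCM3, the GINS subunit PSF2, MCM10 and the polymerase subunits POL12, POL32 and POL2. The median log2 fold change was −0.16 over the 40 genes and −0.05 over all genes. Without 0 h replicate 2 the number of lower genes was 4, and it was 5 without either array of 0.5 h.

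At 1 h the calls were close to those at 0.5 h. The same 8 genes were higher than at 0 h and 10 were lower, the 8 of the earlier time with ORC5 and DPB2 added, where all genes gave 29.3% higher and 33.4% lower. Between 1 h and 0.5 h, 0 of 40 genes passed the test, and over all genes the share was 0.00% in either direction. At an unadjusted p under 0.05 by limma the numbers for this step were still 0 of 40, and 61 higher and 29 lower among all genes. The median log2 fold change at 1 h over 0 h was −0.10, and it was 0.05 without 0 h replicate 2, which also left 6 lower genes.

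At 4 h fewer replication genes were higher than at 0 h. POL30, RFA1 and RFA3 passed the test as higher, and 9 genes were lower (ORC3, ORC4, ORC5, PSF2, MCM10, POL12, POL31, POL2 and DPB2), beside 19.4% and 23.2% of all genes. These numbers moved with single arrays, and leaving out 4 h replicate 2 left 1 higher and 1 lower gene. Without 0 h replicate 2 there were 1 and 3, without 0 h replicate 1 there were 4 lower genes, and without any array of 0.5 or 1 h or 4 h replicate 1 there were 5. Against 1 h, PRI2, POL30, RFA1, RFA2, CDC9 and RAD27 were lower at 4 h, and PSF2 and MCM10 were higher. That is 6 and 2 of 40 genes, where all genes gave 12.8% lower and 14.5% higher. The lower number was 2 without 4 h replicate 1 and 3 without 4 h replicate 2 or 1 h replicate 2, and the higher number was 1, PSF2, without any single array of 0.5, 1 or 4 h.

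At 12 h more replication genes were called higher. Against 4 h, 15 of 40 genes were higher and 0 were lower, while 6.83% of all genes were higher and 4.50% were lower. At an unadjusted p under 0.05 the numbers were 19 and 1. The median log2 fold change over the 40 genes was 0.51, beside 0.01 over all genes, and 34 of 40 values were above 0. Against 0 h, 15 genes were higher and 4 were lower, beside 21.4% and 22.0% of all genes, and the median was 0.35, beside −0.05. The lower 4 were ORC3, ORC4, ORC5 and PSF2, of which 2, ORC5 and PSF2, passed when any 1 array of 0.5, 1 or 4 h was left out, or 0 h replicate 2 or 12 h replicate 2.

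**Figure D1:**
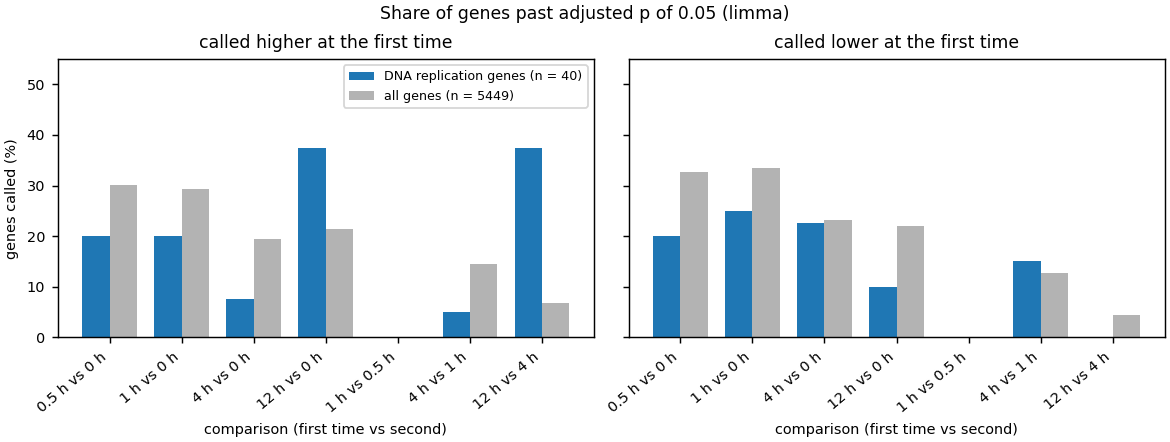
Share of genes called higher (left) and lower (right) by limma at an adjusted p under 0.05 in each of the 7 comparisons, for the 40 DNA replication genes (blue) and all 5449 genes (grey), in percent. The blue bar stands above the grey one for higher genes at 12 h against 0 h and at 12 h against 4 h. In each of these comparisons 15 of 40 genes passed, but not the same 15. MCM2, RFC3 and RFA1 passed only against 0 h, and POL12, POL2 and DPB2 only against 4 h.

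The size of the 12 h change depended on the arrays. Replicate 1 of 12 h was above replicate 2 in 34 of 40 replication genes, with a median difference of 0.21 on the log2 scale, and in 65.7% of all genes, with a median difference of 0.14. Without 12 h replicate 1 the median of 12 h over 4 h was 0.23, and without 12 h replicate 2 it was 0.65. The number of genes higher at 12 h than at 4 h was 9 without 12 h replicate 1, and also 9 without either 4 h array. Without 12 h replicate 2, 1 gene was called lower. The median of 12 h over 0 h was 0.19 without 0 h replicate 1 and 0.18 without 12 h replicate 1.

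**Figure D2:**
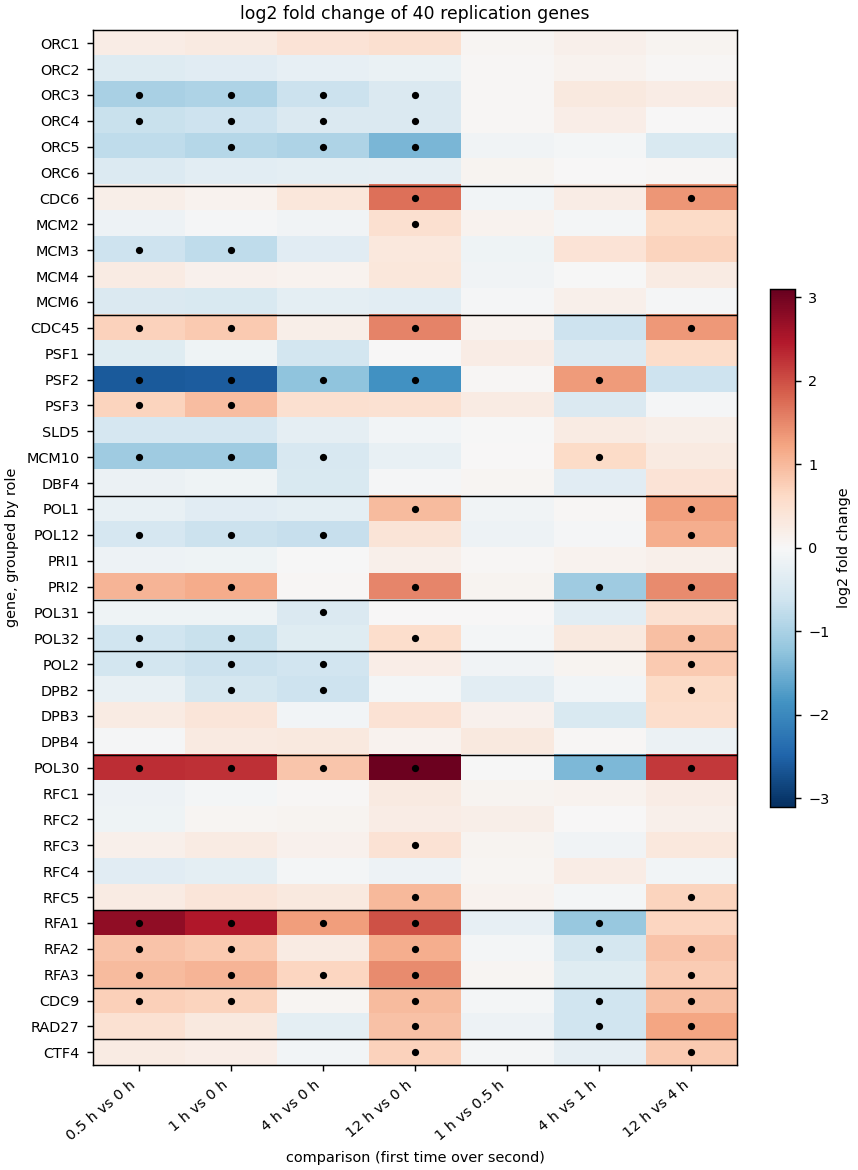
log2 fold change of the 40 genes (rows, grouped by role) in the 7 comparisons (columns, first time over second), from red (higher at the first time) to blue (lower), with a dot where limma's adjusted p was under 0.05. The column of 1 h against 0.5 h holds no dot, and that of 12 h against 4 h holds 15, all in red cells.

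Replication protein A is the 3-subunit complex that binds and protects single-stranded DNA. All 3 of its genes were called higher at 0.5, 1 and 12 h against 0 h, and 2 of the 3 at 4 h. Of all genes 30.1%, 29.3% and 21.4% were higher at 0.5, 1 and 12 h, and 19.4% at 4 h. RFA1 (YAR007C), the large subunit, had intensities of 151 and 161 at 0 h, 881 and 1224 at 0.5 h, 746 and 999 at 1 h, 342 and 433 at 4 h and 610 and 620 at 12 h. All arrays in ethanol lay above both 0 h arrays, and both 4 h arrays lay below those of the other ethanol times. Its log2 fold change over 0 h was 2.74 ± 0.22 at 0.5 h (SE, adjusted p = 9.5e-06 by limma) and 1.98 ± 0.22 at 12 h (adjusted p = 0.00011). RFA2 (YNL312W), the middle subunit, had 340 and 307 at 0 h, 556 and 631 at 0.5 h, 588 and 545 at 1 h, 361 and 413 at 4 h and 743 and 677 at 12 h. RFA3 (YJL173C), the small subunit, had 294 and 245, then 594 and 480, 603 and 508, 426 and 421, and 782 and 692 at the same times. For both, the 0.5, 1 and 12 h arrays lay above all 0 h arrays without overlap. The log2 fold changes at 0.5 h over 0 h were 0.87 ± 0.16 for RFA2 and 0.99 ± 0.18 for RFA3, and at 12 h 1.13 ± 0.16 and 1.45 ± 0.18. At 4 h over 0 h the values were 0.26 ± 0.16 for RFA2 and 0.66 ± 0.18 for RFA3 (adjusted p = 0.22 and 0.016 by limma). The calls at 0.5, 1 and 12 h against 0 h held for all 3 genes without any single array.

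POL30 (YBR088C) encodes PCNA, the ring that clamps polymerases to DNA, and it had the highest log2 fold change of the 40 genes at 12 h. It gave intensities of 131 and 120 at 0 h, 588 and 631 at 0.5 h, 571 and 632 at 1 h, 187 and 277 at 4 h and 1119 and 953 at 12 h. The 12 h arrays lay above all others, and the 4 h arrays lay between those of 0 h and those of 0.5 and 1 h. Relative to 0 h the log2 fold change was 2.28 ± 0.20 at 0.5 h (adjusted p = 1.7e-05), 2.26 ± 0.20 at 1 h, 0.85 ± 0.20 at 4 h and 3.04 ± 0.20 at 12 h (adjusted p = 6.6e-06). The fall at 4 h against 1 h was −1.40 ± 0.20 (adjusted p = 0.0020) and the rise at 12 h against 4 h was 2.18 ± 0.20 (adjusted p = 0.00023). Of these, the call at 4 h against 0 h was lost without 0 h replicate 2 or 4 h replicate 2.

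The clamp is placed on DNA by replication factor C, a loader of 5 subunits, of which 0 of 5 genes were called at 0.5, 1 or 4 h against 0 h. Of all genes 30.1% were higher and 32.7% lower at 0.5 h, 29.3% and 33.4% at 1 h and 19.4% and 23.2% at 4 h. At 0.5 h their log2 fold changes ran from −0.36 for RFC4 to 0.27 for RFC5. RFC5 (YBR087W) had 128 and 147 at 0 h, 172 and 158 at 0.5 h, 190 and 165 at 1 h, 170 and 171 at 4 h and 308 and 245 at 12 h. Both 12 h arrays stood above all others, with a log2 fold change over 0 h of 1.00 ± 0.17 (adjusted p = 0.0013). RFC3 had 261 and 220 at 12 h, against 165 and 187 at 0 h, and a log2 fold change of 0.45 ± 0.16 (adjusted p = 0.048), a call kept in 1 of 10 fits that each left out an array. RFC2 had 389 and 422 at 0 h, 361 and 384 at 0.5 h, 406 and 439 at 1 h, 409 and 447 at 4 h and 544 and 420 at 12 h. RFC4 had 273 and 252 at 0 h, 205 and 203 at 0.5 h, 217 and 206 at 1 h, 249 and 252 at 4 h and 256 and 219 at 12 h. RFC1 (between 259.8 and 386), RFC2 and RFC4 passed in none of the 7 comparisons, RFC4 at 0.5 h with an adjusted p of 0.055. RFC5 and POL30 are neighbours in the gene order of the R64 assembly, 1 of 2 such pairs among the 40 genes.

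**Figure D3:**
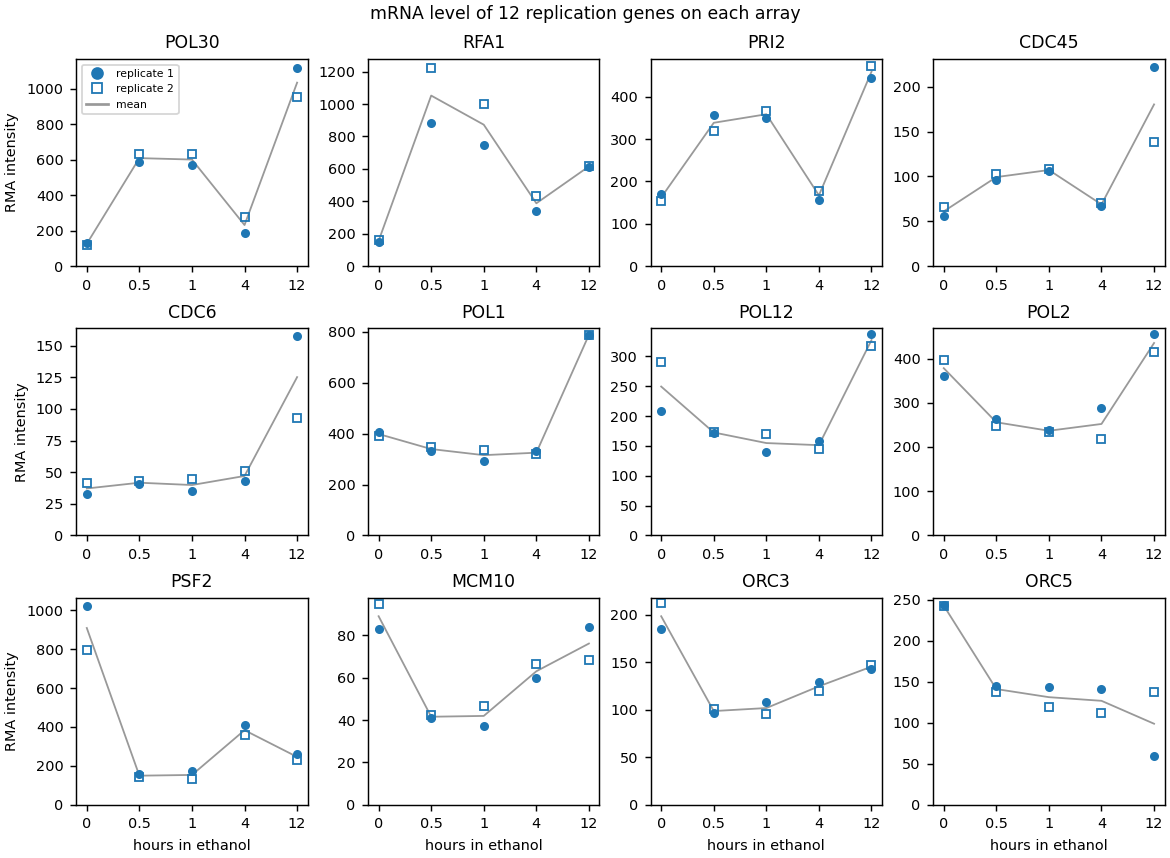
RMA intensity (linear scale from 0) of 12 replication genes on each array against hours in ethanol, with the times evenly spaced (filled circle, replicate 1, open square, replicate 2, grey line, mean of both arrays). POL30, RFA1, PRI2 and CDC45 are high at 0.5 and 1 h, lower at 4 h and high at 12 h, CDC6 and POL1 are high at 12 h, and PSF2, ORC3 and ORC5 stay below their 0 h arrays.

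DNA polymerase alpha-primase starts each new strand by laying down an RNA and DNA primer. Of its 4 genes, 1 was higher, 1 lower and 2 not called at 0.5 h against 0 h, beside 30.1% and 32.7% of all genes. PRI2 (YKL045W), the large primase subunit, had 170 and 154 at 0 h, 357 and 320 at 0.5 h, 350 and 368 at 1 h, 156 and 178 at 4 h and 445 and 473 at 12 h. Its 4 h arrays overlapped those of 0 h, and the arrays of 0.5, 1 and 12 h lay above both. Relative to 0 h the log2 fold changes at 0.5, 4 and 12 h were 1.06, 0.04 and 1.50, each ± 0.15 (adjusted p = 0.00025, 0.85 and 6.9e-05). POL1 (YNL102W), the catalytic subunit, had 408 and 389 at 0 h, 332 and 346 at 0.5 h, 293 and 337 at 1 h, 330 and 320 at 4 h and 789 and 788 at 12 h. It passed the test only at 12 h, by 0.98 ± 0.14 over 0 h and 1.28 ± 0.14 over 4 h (adjusted p = 0.00056 and 0.00067), and both calls held without any single array.

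POL12 (YBL035C), the regulatory subunit, had 208 and 291 at 0 h, 172 and 173 at 0.5 h, 140 and 170 at 1 h, 158 and 144 at 4 h and 337 and 318 at 12 h. Its 12 h arrays were above all others, and all arrays of 0.5, 1 and 4 h were below both of 0 h. The call at 0.5 h (−0.51 ± 0.19, adjusted p = 0.038) was lost without 0 h replicate 2, either array of 0.5 h or either array of 4 h, and its size was −0.27 without 0 h replicate 2. The rise at 12 h over 4 h was 1.11 ± 0.19 (adjusted p = 0.0059). PRI1, the small catalytic primase subunit, had 145 and 150 at 0 h, 144 and 121 at 0.5 h, 139 and 131 at 1 h, 149 and 143 at 4 h and 174 and 153 at 12 h. It passed in no comparison, with 0.15 ± 0.16 at 12 h over 0 h, although both 12 h arrays were above all others.

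DNA polymerase delta copies mainly the lagging strand. Its subunit POL32 (YJR043C) had 127 and 136 at 0 h, 83.5 and 86.2 at 0.5 h, 89.6 and 74.5 at 1 h, 101 and 101 at 4 h and 228 and 160 at 12 h. It was the single member lower than at 0 h early and higher at 12 h, with log2 fold changes of −0.63 ± 0.19 at 0.5 h, −0.68 ± 0.19 at 1 h and 0.54 ± 0.19 at 12 h (adjusted p = 0.016, 0.011 and 0.044). The call at 12 h against 0 h was kept in 1 of 10 fits that left out an array, and those at 0.5 and 1 h in 7 and 8. POL31, the second subunit, had 199 and 175 at 0 h, 162 and 178 at 0.5 h, 163 and 179 at 1 h, 140 and 133 at 4 h and 207 and 173 at 12 h. Its 4 h arrays lay below all others, with a log2 fold change over 0 h of −0.45 ± 0.16 (adjusted p = 0.046, kept in 2 of 10 such fits).

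DNA polymerase epsilon copies the leading strand. POL2 (YNL262W), its catalytic subunit, had 361 and 396 at 0 h, 263 and 248 at 0.5 h, 238 and 235 at 1 h, 287 and 217 at 4 h and 456 and 414 at 12 h. The arrays of 0.5, 1 and 4 h all lay below both 0 h arrays, which lay below both 12 h arrays. Its log2 fold change was −0.67 ± 0.17 at 1 h over 0 h (adjusted p = 0.0068) and 0.80 ± 0.17 at 12 h over 4 h (adjusted p = 0.017), the second lost without 4 h replicate 2 or 12 h replicate 1. DPB2, the essential second subunit, was lower at 1 h (117 and 130, against 196 and 166 at 0 h) and at 4 h (121 and 111), and its rise at 12 h over 4 h (0.58 ± 0.16, adjusted p = 0.047) was kept in 1 of 10 fits. DPB3 and DPB4, the histone-fold subunits, were called in no comparison. DPB3 had 187 and 167 at 0 h, 248 and 177 at 0.5 h, 264 and 200 at 1 h, 175 and 156 at 4 h and 310 and 187 at 12 h. DPB4 had 418 and 343 at 0 h, 419 and 321 at 0.5 h, 588 and 353 at 1 h, 493 and 435 at 4 h and 535 and 316 at 12 h. For both, replicate 1 was above replicate 2 at each time.

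The origin recognition complex marks origins throughout the cell cycle. Of its 6 genes, 0 were called higher and 2 lower at 0.5 h against 0 h, beside 30.1% and 32.7% of all genes, and 0 higher and 3 lower at 12 h, beside 21.4% and 22.0%. ORC3 (YLL004W) had 185 and 212 at 0 h, 95.9 and 101 at 0.5 h, 108 and 95.8 at 1 h, 129 and 120 at 4 h and 143 and 147 at 12 h. ORC4 (YPR162C) had 213 and 235, then 140 and 137, 143 and 141, 164 and 166, and 175 and 155. For both genes every array in ethanol lay below both 0 h arrays. The log2 fold change at 0.5 h was −1.01 ± 0.15 for ORC3 and −0.69 ± 0.14 for ORC4 (adjusted p = 0.00032 and 0.0023). At 12 h it was −0.45 ± 0.15 and −0.44 ± 0.14 (adjusted p = 0.037 and 0.034), calls that were kept in 1 of 10 fits without an array for each gene.

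ORC5 (YNL261W), which lies next to POL2 in the R64 gene order, had 243 and 242 at 0 h, 145 and 137 at 0.5 h, 144 and 119 at 1 h, 141 and 112 at 4 h and 59.9 and 138 at 12 h. Its log2 fold change at 12 h over 0 h was −1.42 ± 0.32 (adjusted p = 0.0065). The 2 arrays of 12 h gave different sizes, −0.82 without replicate 1 and −2.02 without replicate 2, and both passed. ORC1 had 158 and 232 at 0 h, 203 and 245 at 0.5 h, 188 and 284 at 1 h, 237 and 277 at 4 h and 263 and 280 at 12 h, with replicate 2 above replicate 1 at each time. ORC1, ORC2 (between 167 and 265 on the 10 arrays) and ORC6 (between 91.0 and 157) were called in none of the 7 comparisons. ORC1 was the only gene of the complex with a log2 fold change above 0 at 0.5 h (0.22 ± 0.25).

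Of the genes that load the helicase, CDC6 had the largest change at 12 h. CDC6 (YJL194W), the loading factor, had 32.7 and 41.4 at 0 h, 40.6 and 42.7 at 0.5 h, 35.4 and 44.2 at 1 h, 42.8 and 51.1 at 4 h and 157 and 92.8 at 12 h. Both 12 h arrays lay above all others. Its log2 fold change was 1.71 ± 0.25 at 12 h over 0 h and 1.37 ± 0.25 over 4 h (adjusted p = 0.00060 and 0.0090). The log2 fold change over 4 h ranged from 0.99 without 12 h replicate 1 to 1.75 without 12 h replicate 2, and its call was lost without 4 h replicate 1. CDC6 is dim on these arrays, with 8.20% of genes below its mean level.

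Of the 4 MCM helicase genes of the list, 0 were higher and 1 was lower at 0.5 h against 0 h. At 12 h against 0 h 1 was higher and 0 were lower. All genes gave 30.1% higher and 32.7% lower at 0.5 h, and 21.4% and 22.0% at 12 h. MCM3 (YEL032W) had 296 and 368 at 0 h, 188 and 239 at 0.5 h, 194 and 191 at 1 h, 281 and 240 at 4 h and 487 and 357 at 12 h, and its arrays of 0.5 and 1 h lay below both of 0 h. At 1 h over 0 h its log2 fold change was −0.78 ± 0.21 (adjusted p = 0.0090, lost without 0 h replicate 2). MCM2 had 198 and 237 at 0 h, 178 and 214 at 0.5 h, 195 and 229 at 1 h, 203 and 201 at 4 h and 316 and 295 at 12 h. Its 12 h arrays lay above all others, with a log2 fold change over 0 h of 0.49 ± 0.17 (adjusted p = 0.040) that passed in 5 of 10 fits without an array. MCM6 had 245 and 241 at 0 h, 180 and 179 at 0.5 h, 166 and 186 at 1 h, 211 and 183 at 4 h and 236 and 157 at 12 h, and its 0 h arrays were above the others, but its log2 fold change at 0.5 h was −0.44 ± 0.20 (adjusted p = 0.083). MCM6 and MCM4 (between 281 and 451 on the 10 arrays) were called in no comparison. At 12 h against 4 h 0 of the 4 passed, beside 6.83% of all genes higher and 4.50% lower. Their log2 fold changes in that step ran from −0.04 for MCM6 to 0.68 for MCM3. MCM3 and MCM2 (0.59) were close to the threshold there, with adjusted p = 0.067 and 0.054 by limma.

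Of the 7 genes that turn the loaded ring into a working helicase, 2 were higher, 2 lower and 3 not called at 0.5 h against 0 h. All genes gave 30.1% higher and 32.7% lower. CDC45 (YLR103C), the helicase cofactor, had 56.2 and 65.8 at 0 h, 96.1 and 102 at 0.5 h, 105 and 109 at 1 h, 66.7 and 70.8 at 4 h and 222 and 138 at 12 h. Its arrays of 0.5, 1 and 12 h lay above those of 0 and 4 h. The log2 fold change was 0.71 ± 0.22 at 0.5 h and 1.53 ± 0.22 at 12 h over 0 h (adjusted p = 0.017 and 0.00047), of which the first was lost without 0 h replicate 1 or either array of 0.5 h.

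GINS is a ring of 4 subunits that joins Cdc45 on the helicase, and its genes PSF2 and PSF3 moved apart. PSF2 (YJL072C) had 1020 and 798 at 0 h, 157 and 142 at 0.5 h, 173 and 134 at 1 h, 410 and 357 at 4 h and 261 and 230 at 12 h. Both 0 h arrays lay above all others, and both 4 h arrays lay above those of the remaining ethanol times. The log2 fold changes over 0 h at 0.5, 4 and 12 h were −2.60, −1.24 and −1.88, each ± 0.19 (adjusted p = 7.8e-06, 0.00094 and 7.5e-05), and all 3 calls held without any single array. It was the lowest value of the 40 genes in each comparison with 0 h. PSF3 (YOL146W) had 226 and 176 at 0 h, 384 and 273 at 0.5 h, 407 and 363 at 1 h, 307 and 257 at 4 h and 327 and 233 at 12 h. At 1 h its log2 fold change was 0.95 ± 0.24 (adjusted p = 0.0062), lost without 0 h replicate 2. PSF1 and SLD5, the other GINS genes, lay between 150.4 and 337 and between 74.5 and 140.4 on the 10 arrays. They were called in no comparison, with log2 fold changes of −0.38 ± 0.28 and −0.51 ± 0.21 at 0.5 h.

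MCM10 (YIL150C), a replication factor needed to start unwinding, had 83.2 and 95.0 at 0 h, 40.9 and 42.2 at 0.5 h, 37.3 and 46.7 at 1 h, 59.7 and 66.5 at 4 h and 84.1 and 68.3 at 12 h. Both early times lay below all other arrays, and 12 h overlapped 0 h. The log2 fold change was −1.10 ± 0.18 at 0.5 h over 0 h (adjusted p = 0.00053) and −0.23 ± 0.18 at 12 h (adjusted p = 0.33). DBF4, the regulatory subunit of the kinase Cdc7, had 89.6 and 132 at 0 h, 89.9 and 102 at 0.5 h, 90.6 and 109 at 1 h, 72.0 and 84.2 at 4 h and 133 and 83.1 at 12 h. Its 0 h arrays overlapped those of every time but 4 h, and it was called in no comparison.

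Okazaki fragments are trimmed by the flap nuclease Rad27 and joined by the DNA ligase Cdc9. CDC9 (YDL164C) had 123 and 126 at 0 h, 196 and 221 at 0.5 h, 188 and 211 at 1 h, 126 and 132 at 4 h and 264 and 229 at 12 h. Its 4 h arrays lay at the level of 0 h, and those of the other ethanol times lay above. Over 0 h the log2 fold change was 0.74 ± 0.15 at 0.5 h and 0.98 ± 0.15 at 12 h (adjusted p = 0.0022 and 0.00082). RAD27 (YKL113C) had 153 and 142 at 0 h, 207 and 200 at 0.5 h, 195 and 171 at 1 h, 116 and 121 at 4 h and 334 and 231 at 12 h. It missed the threshold at 0.5 h (0.47 ± 0.19, adjusted p = 0.056) and rose at 12 h by 1.23 ± 0.19 over 4 h (adjusted p = 0.0035).

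CTF4 (YPR135W), the scaffold that ties polymerase alpha to the helicase, had 187 and 214 at 0 h, 251 and 227 at 0.5 h, 229 and 229 at 1 h, 195 and 181 at 4 h and 358 and 300 at 12 h. Both 12 h arrays lay above all others, with a log2 fold change of 0.71 ± 0.16 over 0 h and 0.80 ± 0.16 over 4 h (adjusted p = 0.0056 and 0.012). The second call was lost without 4 h replicate 2 or 12 h replicate 1.

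**Figure D4:**
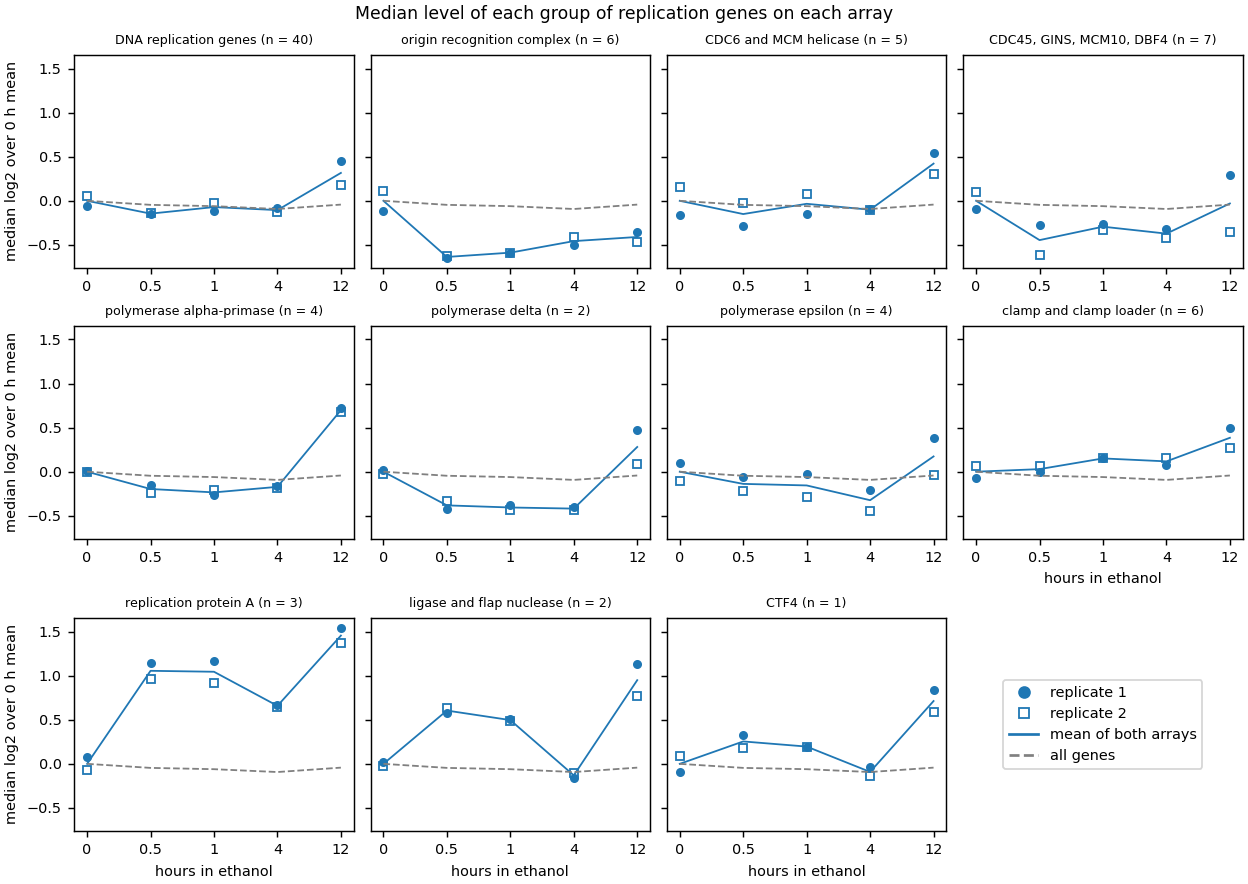
Median over the genes of each role of the log2 intensity relative to the mean of the 2 arrays of 0 h, on each array, against hours in ethanol with the times evenly spaced (filled circle, replicate 1, open square, replicate 2, blue line, mean of both, dashed line, all 5449 genes). The 3 genes of replication protein A are highest at 0.5, 1 and 12 h, and the median of the 6 origin recognition genes lies below the dashed line at every time in ethanol.

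Read over the whole course, the 40 genes fell into few patterns, described after their calls were known. Higher at 0.5 and 1 h and again at 12 h against 0 h were 7 genes (CDC45, PRI2, POL30, RFA1, RFA2, RFA3 and CDC9), or 17.5%, beside 15.3% of all genes. Another 7, again 17.5%, were called against 0 h at 12 h alone, as higher (CDC6, MCM2, POL1, RFC3, RFC5, RAD27 and CTF4), beside 3.08% of all genes. Lower both in the first hour and at 12 h were 4 genes (ORC3, ORC4, ORC5 and PSF2), beside 16.1% of all genes. A further 6 were lower at 0.5, 1 or 4 h without a call at 12 h (MCM3, MCM10, POL12, POL31, POL2 and DPB2), beside 19.2%. PSF3 was higher early only, like 11.8% of all genes, and POL32 was lower early and higher at 12 h, like 0.844%. In none of the 7 comparisons were 14 genes called, or 35%, beside 22.3% of all genes, and 6 of the 14 (MCM6, ORC1, ORC6, PSF1, RFC4 and SLD5) passed in 1 or more comparisons with the replicate number as a block. By the moderated F test of limma over the 4 contrasts with 0 h, 24 of 40 genes changed, where the share over all genes was 70.6%. The 8 members in the lowest 20% of genes by mean level were CDC6, MCM10, CDC45, DBF4, SLD5, POL32, ORC6 and ORC3.

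Genes of 22 further replication factors, outside the list of 40, were also measured. Of these, 2 were higher and 7 lower at 0.5 h against 0 h, 8 were higher and 2 lower at 12 h against 0 h, and 4 were higher and 0 lower at 12 h against 4 h. The shares of all genes in the same comparisons were 30.1% and 32.7%, 21.4% and 22.0%, and 6.83% and 4.50%. The largest early falls were those of NOC3, a factor of ribosome assembly and replication initiation (71.9 and 76.8 at 0.5 h, against 291 and 337 at 0 h), and of TAH11, the yeast Cdt1 that brings the MCM ring to origins (186 and 206 at 0.5 h, against 731 and 534 at 0 h). Their log2 fold changes were −2.07 ± 0.24 and −1.67 ± 0.21 (adjusted p = 7.7e-05 and 0.00011). ECO1, the cohesin acetyltransferase, rose by 1.14 ± 0.21. At 12 h over 4 h CTF18, part of an alternative clamp loader, and RNH201, a subunit of RNase H2, rose by 2.06 ± 0.17 and 2.06 ± 0.38, and were named after their values were seen. Both are dim, with 8.88% of genes below the mean level of CTF18 and 7.05% below that of RNH201. CTF18 had 29.1 and 26.5 at 4 h, and RNH201 had 32.0 and 22.5. POL3, the catalytic subunit of polymerase delta, had 412 and 387 at 12 h, against 201 and 277 at 0 h (0.76 ± 0.18, adjusted p = 0.0087). MCM7 was lower at 0.5 h (−0.89 ± 0.22), and MCM5 was higher at 12 h against 0 h (0.64 ± 0.20, adjusted p = 0.028).

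Of 5 genes that supply deoxynucleotides, 4 were higher and 1 lower at 0.5 h against 0 h, beside 30.1% and 32.7% of all genes. At 12 h against 4 h 4 were higher and 0 lower, beside 6.83% and 4.50%. CDC21, thymidylate synthase, had 36.2 and 39.2 at 0 h, 136 and 145 at 0.5 h, 141 and 157 at 1 h, 78.8 and 86.6 at 4 h and 338 and 320 at 12 h. RNR1, the large subunit of ribonucleotide reductase, had 87.9 and 169 at 0 h, 237 and 321 at 0.5 h, 232 and 293 at 1 h, 89.6 and 121 at 4 h and 1724 and 1698 at 12 h. Its log2 fold change at 12 h over 4 h was 4.04 ± 0.30 (adjusted p = 8.5e-05), and RNR2 rose by 0.84 ± 0.16 in that step. CDC8, thymidylate kinase, was the gene that was lower at 0.5 h (−0.72 ± 0.23, adjusted p = 0.022).

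Regulators of the G1 to S step were measured in the same way. Of 12, 8 were higher and 0 lower at 0.5 h against 0 h, beside 30.1% and 32.7% of all genes. At 12 h against 4 h 6 were higher and 0 lower (NRM1, CLN1, CLN2, CLN3, CLB5 and CLB6), beside 6.83% and 4.50%. SWI4, the DNA-binding part of SBF, rose at 0.5 h by 1.55 ± 0.43, and SWI6, the subunit shared by SBF and MBF, by 1.26 ± 0.27 (adjusted p = 0.011 and 0.0025). At 12 h over 4 h their values were −0.46 ± 0.43 and 0.17 ± 0.27, past no threshold. NRM1, the corepressor of MBF, had 45.7 and 41.2 at 0.5 h, against 19.9 and 16.4 at 0 h, and 298 and 236 at 12 h, against 23.3 and 29.7 at 4 h. The cyclins of S phase CLB5 and CLB6 rose at 12 h over 4 h by 1.09 ± 0.19 and 2.94 ± 0.32. CLB6 is dim on these arrays (5.30% of genes lie below its mean level), with 10.2 and 19.0 at 4 h. NRM1 and CLN2 are dim as well, with 7.95% and 6.97% of genes below their mean levels.

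Genes of other cell cycle phases were measured as well. Of 7 measured G2 and M phase genes, 6 were higher and 1 lower at 12 h against 4 h, with log2 fold changes of 3.81 ± 0.29 for CLB1 and 3.61 ± 0.23 for CLB2, the mitotic cyclins, and −0.94 ± 0.26 for CDC20, an activator of the anaphase-promoting complex. CLB2 had 6.12 and 7.07 at 4 h, and 3.85% of genes lie below its mean level. At 0.5 h against 0 h 4 of the 7 were higher and 0 lower. Of 8 genes expressed around the end of mitosis, 4 were higher and 0 lower at 12 h against 4 h, while at 0.5 h against 0 h 1, PIR1, a cell wall protein, was lower (−1.13 ± 0.23). The shares of all genes were 6.83% higher and 4.50% lower at 12 h against 4 h, and 30.1% and 32.7% at 0.5 h against 0 h. The part of cell cycle distribution in the values of the replication genes was not tested.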

How the data were processed

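The deposited table gives, for 10 arrays and 5716 probe sets, RMA values of intensity that are not logged. The authors read the arrays with MAS 5.0 and made the intensity values by background adjustment, normalization and summarization with RMA in BioConductor, whose versions are not given in the sources used here. RMA compresses low values and gives the arrays like distributions. The arrays measured biotin-labelled cDNA primed with oligo(dT), and 2 arrays a time limit the precision.

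Deposited intensity values were taken to log2 with no further scaling. Names came from the platform table (5498 probe sets with 1 symbol, 218 with none, 12 symbols updated through the R64 gene table), and the brightest probe set of a gene was kept, which left 5449 genes. All genes were fitted with limma 3.58.1 in R 4.3.3, with time as a factor, no block, 5 residual and 4.33 prior degrees of freedom, and Benjamini-Hochberg adjustment over all genes. The fit was tested on simulated data. An exact permutation test of 2 against 2 arrays was not used because it cannot go below 0.333 (two-sided). Tables and figures were made in Python 3.11.15 with numpy 2.4.6, pandas 2.3.3 and matplotlib 3.10.9.

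The members, the role and comparison lists and the alternatives were chosen with earlier results of these data known. The members given array by array were, in each role, those with the 2 largest and the smallest change at 0.5 h, with POL30, CDC6 and any member called against the majority. Further members are given for their calls at other times. From each comparison list up to 3 genes with the largest called change at 0.5 h were named, and others there were named after their values were seen. The alternatives were another scaling, an added constant of 16, a filter of the dimmest 20% of genes, the mean of probe sets, a replicate block, pairs of times alone, a variance trend and each array left out. Promoter motifs are not analysed here.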

Additional observations from a re-analysis of the deposited data

Results flagged for a closer look

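POL32, a subunit of polymerase delta, was the 1 replication gene called in opposite directions at an early time and at 12 h against 0 h. Its log2 fold change over 0 h was 0.54 at 12 h, against −0.63 at 0.5 h, a difference of 1.17 ± 0.19 (SE). Against the value at 1 h (−0.68) the difference was 1.23 ± 0.19. Both differences follow from the opposite calls by which the gene was picked and are given as a description, with no test. The call at 12 h was kept in 1 of 10 fits that each left out an array, with log2 fold changes from 0.29 to 0.80. The calls at 0.5 and 1 h were kept in 7 and 8 of these fits. The 12 h arrays had intensities of 228 and 160.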

How the results depend on the processing

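No value changed to a call in the opposite direction under any alternative run. The numbers of replication genes called moved by over 1.5 times in these cases. At 12 h against 4 h the number lower was 1 in place of 0 after a shift to a common median, after quantile normalization and with the replicate block. At 4 h against 1 h the number higher was 1 in place of 2 with 16 added, without the dimmest 20% of genes (which left 4359 genes and 32 members), with a variance trend and with only the 4 arrays of both times. At 12 h against 0 h the number lower was 2 in place of 4 with the trend and with those 4 arrays, which also gave 5 lower genes at 4 h against 0 h and 9 higher at 12 h against 4 h. The causes were not tested.

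With 1 array left out at a time, the ranges against 0 h were 4 to 11 lower genes at 0.5 h, 6 to 11 at 1 h, 1 to 9 at 4 h and 2 to 4 at 12 h, and 1 to 3 higher genes at 4 h. At 4 h against 1 h they were 2 to 7 lower and 1 to 2 higher genes, and at 12 h against 4 h 9 to 16 higher and 0 to 1 lower. The median log2 fold change ran from −0.14 to 0.052 at 1 h over 0 h, from 0.18 to 0.46 at 12 h over 0 h and from 0.23 to 0.65 at 12 h over 4 h. Among all genes, at 12 h against 4 h, 372 were higher and 245 lower, with 580 and 486 under the replicate block, 243 and 110 with only the 4 arrays of both times, and down to 196 and 62 without 4 h replicate 2. At 4 h against 0 h 1056 and 1265 became 689 and 694 without 4 h replicate 2, and at 4 h against 1 h 789 and 696 became 310 and 169 without 4 h replicate 1. Fewer samples enter these fits.

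Adding the replicate number as a block gave 17 more calls among the 280 member values and took away 0 (6 of the 14 genes otherwise called in no comparison passed in at least 1), and it turned the 0 lower genes at 12 h against 4 h into 1. Correlations of the difference between replicates 1 and 2 between times ran from 0.03 (0 and 4 h) to 0.56 (1 and 4 h), with 8 of 10 above 0.1 but not all, and the labels tie the numbers to no shared culture, so the numbers were not taken as pairs.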
